A study of Mus musculus with 9 samples.

Results

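MHC class I antigen presentation was followed in mouse kidney through 10 genes, chosen by symbol from the 32593 genes of the deposited table: the heavy chains H2-K1 and H2-D1, the light chain B2m, the peptide transporter and loading genes Tap1, Tap2 and Tapbp, the immunoproteasome subunits Psmb8, Psmb9 and Psmb10, and the transactivator Nlrc5. Total kidney RNA was sequenced in 9 libraries, 3 for each of 3 groups, and all groups had received AngII (angiotensin II, which constricts vessels and raises blood pressure). GRPR-AngII mice carried a Cre transgene named for CDH16, a cadherin of kidney tubule epithelium, with a floxed GRPR allele (CDH16 Cre+/GRPR fl/fl). CDH16KO-AngII mice carried that Cre with a floxed Tmem allele (CDH16 Cre+/Tmem fl/fl), and AngII mice carried the floxed Tmem allele with no Cre listed (Tmem fl/fl). The labels name no strain, age, AngII dose or duration, nor whether each library is its own animal, so a p-value here rests on variation between libraries, which may be technical. The comparison of CDH16KO-AngII with AngII differs in Cre as well as in any deletion, and that of GRPR-AngII with AngII differs in Cre and in the floxed allele.

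Class I molecules display peptides of intracellular proteins to CD8 T cells. The proteasome cuts the peptides, TAP1 and TAP2 carry them into the endoplasmic reticulum, tapasin (Tapbp) holds the empty heavy chain next to the transporter, and the heavy chain leaves for the surface once it has bound peptide and beta-2 microglobulin. Interferon-gamma induces Psmb8, Psmb9 and Psmb10, which replace the constitutive catalytic subunits of the proteasome, and NLRC5 acts at class I promoters together with factors bound to their X and CCAAT boxes. Kidney tubule and endothelial cells carry class I molecules, and leukocytes carry more of them.

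On GRCm38, 7 of the 10 genes lie on chromosome 17, within or beside the mouse MHC. The heavy chain genes stand far apart, H2-K1 at chr17:33996017-34000347 on the minus strand and H2-D1 at chr17:35262730-35267499 on the plus strand. Psmb9 (chr17:34181987-34187764, minus), Tap1 (chr17:34187553-34197225, plus), Psmb8 (chr17:34197721-34201454, plus) and Tap2 (chr17:34203527-34216321, plus) follow one another, and Tapbp is at chr17:33915899-33926197 on the plus strand. B2m is at chr2:122147686-122153083 on the plus strand, and Psmb10 (chr8:105935735-105938104, minus) and Nlrc5 (chr8:94434356-94527272, plus) are on chromosome 8.

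RefSeq promoters of GRCm38.p6 were given for 8 of the 10 genes, all but Tap2 and Nlrc5. A pair of them is shown because the known enhancer elements of class I genes can be read in them: the stretches just upstream of H2-K1 (chr17:34000348-34000537, minus strand) and of B2m (chr2:122147497-122147685, plus strand). Capitals mark matches to GGGATTCC (an NF-kB site), GAANNGAAA or GAAANNGAA (interferon-stimulated response elements with either spacing), TGACGC (a core of the X box) and CCAAT (the NF-Y box), each read on both strands, so that CCAAT on the other strand appears as ATTGG.
H2-K1: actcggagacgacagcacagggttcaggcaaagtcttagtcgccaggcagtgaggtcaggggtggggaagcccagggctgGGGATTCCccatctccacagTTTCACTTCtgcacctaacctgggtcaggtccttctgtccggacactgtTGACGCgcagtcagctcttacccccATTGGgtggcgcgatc
B2m: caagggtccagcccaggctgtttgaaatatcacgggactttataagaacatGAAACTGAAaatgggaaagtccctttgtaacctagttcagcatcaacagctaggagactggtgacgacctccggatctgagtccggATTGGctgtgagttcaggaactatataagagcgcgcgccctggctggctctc
Next to each other, the NF-kB and interferon elements of the heavy chain promoters (chr17:34000429-34000458, minus strand, for H2-K1 and chr17:35262923-35262952, plus strand, for H2-D1) share 29 of 30 bases, with A18T as the difference, counted from 1 at the left end with the H2-K1 base first.
H2-K1: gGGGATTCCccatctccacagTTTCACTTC
H2-D1: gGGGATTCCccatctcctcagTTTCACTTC
In the 250 bases upstream of the RefSeq starts, GGGATTCC occurred in these 2 heavy chain genes among the 8 and in 0.889% of 32851 mouse promoters. TGACGC was in the same 2 genes and in 6.12% of promoters, and GAANNGAAA, a spacing added after the sequences were seen, was in the same 2 and in 6.31%. CCAAT was in 6 of the 8 and in 33.8% of promoters. GAAANNGAA was in B2m alone of the 8 (7.13% of promoters), and TTCNNNGAA, the interferon-gamma activated site, in Psmb8 alone (7.02%). The RefSeq starts of Tap1 and Psmb9 lie 226 bases apart on opposite strands, and their annotated spans overlap by 212 bases, where reads cannot be told apart without strand. These are matches of letters only.

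The libraries held 40731748 to 60449117 counts, 11456 to 12276 genes had an FPKM (fragments per kilobase of transcript, scaled to the size of the library) of at least 1, and mitochondria-coded genes took 16.1% to 26.4% of counts. In CPM (counts per 1e+06 after TMM scaling of the library), Sting1, formerly Tmem173, the gene of the DNA-sensing adaptor STING, which the series title points to as the floxed Tmem gene, had 2.90, 2.90 and 2.68 in GRPR-AngII, 2.15, 2.24 and 2.04 in CDH16KO-AngII and 4.62, 1.77 and 5.33 in AngII. The CDH16KO-AngII libraries lay below the GRPR-AngII libraries but within the AngII range, so this gene does not by itself settle the labels. Kidney markers were high in each library, with a summed level over 10 proximal tubule genes of 11717 to 13303 CPM in GRPR-AngII, 8631 to 11489 in CDH16KO-AngII and 11369 to 13385 in AngII. A list of 13 leukocyte and macrophage genes summed to 221 to 279 CPM, 156 to 260 CPM and 158 to 301 CPM in the same 3 groups, and 10 T and NK cell genes to 7.51 to 16, 8.76 to 9.34 and 7.01 to 22.3 CPM. No gene of these lists was at 0 throughout a group. In whole kidney RNA, fewer cells of a type and less RNA per cell cannot be told apart, and the part of these cells in the levels below was not tested.

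The class I genes spanned a wide range of levels in FPKM. An order of genes by FPKM depends on the length assigned to each gene, which was not checked. Averaged over the 9 libraries, B2m was highest at 296 FPKM, followed by H2-D1 at 101, H2-K1 at 78.1 and Tapbp at 15.9. Psmb10 at 7.70 and Tap2 at 6.42 FPKM came next, then Psmb8 at 3.48, Tap1 at 2.35 and Psmb9 at 2.14, and Nlrc5 was lowest at 0.703. Nlrc5 did not reach an FPKM of 1 in 3 libraries and was left out of the main test, so 9 of the 10 genes were tested. The spread over the 9 libraries, as a coefficient of variation of CPM, ran from 10.2% for H2-D1 to 39.3% for Nlrc5. Ranges over the libraries overlap between H2-D1 and H2-K1, between Psmb10 (6.35 to 10.4 FPKM) and Tap2 (4.99 to 8.21), and among Psmb8, Tap1 and Psmb9. Within single libraries, by FPKM, H2-D1 exceeded H2-K1 and Psmb8 exceeded Psmb9 in each. Psmb10 exceeded Tap2 in all but AngII library 3 (7.59 against 8.21 FPKM). Psmb8 exceeded Tap1 in all but AngII library 1 (2.94 against 3.22 FPKM). The order of Tap1 and Psmb9 by FPKM varied between libraries. In counts, Psmb10 (647 to 1080) lay below Tap2 (1126 to 1788) in each library.

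**Figure D1:**
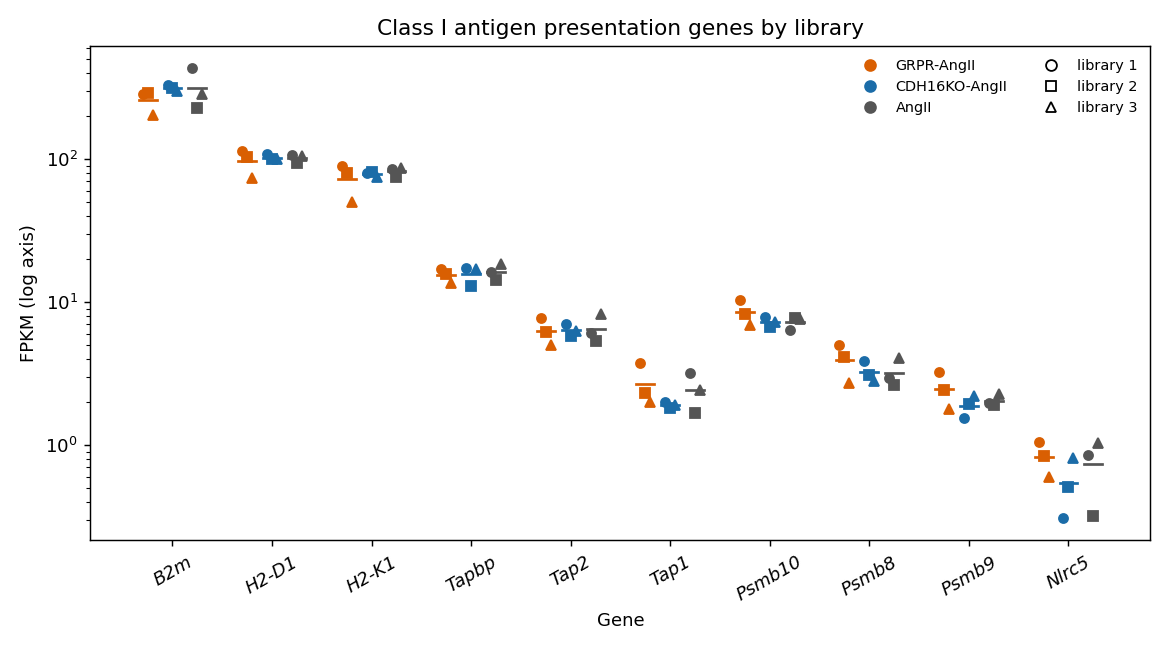
FPKM of each class I antigen presentation gene (log axis) in the 9 libraries, by group; colours are groups, symbols are library numbers and short lines are group means (n = 3). The 3 groups overlap for nearly every gene, and B2m and the heavy chains lie far above the immunoproteasome and transporter genes.

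None of the 9 tested genes passed the test in any of the 3 comparisons. In edgeR's quasi-likelihood test with Benjamini-Hochberg adjustment over 12507 genes, 0 of 9 were called for GRPR-AngII against AngII, where 0% of all tested genes were called (0 genes). The same count was 0 of 9 for CDH16KO-AngII against AngII, where 0.168% of all genes were called (21), and 0 of 9 for GRPR-AngII against CDH16KO-AngII, where 0.144% were called (18). None of the 9 had an unadjusted p under 0.05 in any comparison, while 6.74%, 8.45% and 6.24% of all tested genes did for the same 3 comparisons. DESeq2 and limma called 0 of the 9 as well. The median log2 fold change of the 9 genes was 0.03 for GRPR-AngII against AngII, 0.01 for CDH16KO-AngII against AngII and 0.02 for GRPR-AngII against CDH16KO-AngII, next to −0.01, 0.01 and −0.01 over all genes tested. In each comparison 5 of the 9 values were positive and 4 negative, and with limma on log2(FPKM + 1) 4 were positive and 5 negative in each. For CDH16KO-AngII against AngII the libraries of the groups overlapped for all 10 genes, while they did not for 12.2% of all genes tested. A p above the threshold does not show that the groups were alike, and the 95% intervals below give what the data leave possible.

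**Figure D2:**
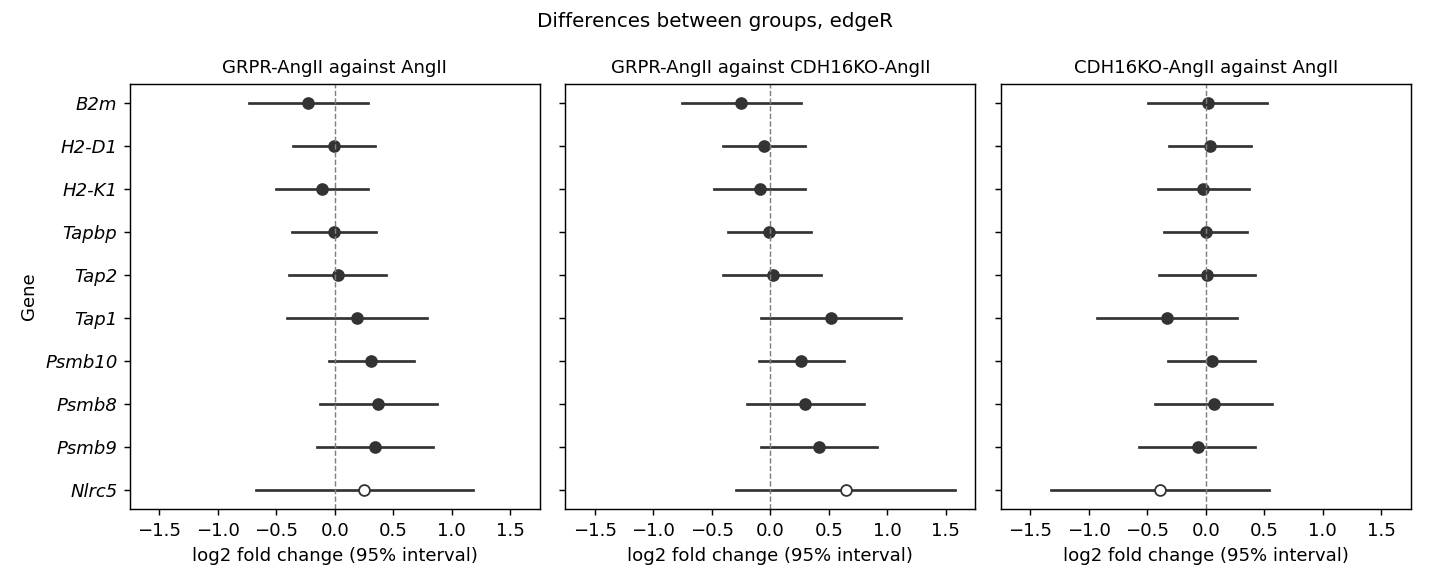
Log2 fold change (dot) with its 95% interval (line) for each gene in the 3 comparisons, from edgeR; the open dot of Nlrc5 comes from a fit with a looser filter, an FPKM of 0.1. The interval crosses 0 for each gene in each comparison, and the immunoproteasome subunits sit to the right in both comparisons of GRPR-AngII.

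H2-K1 and H2-D1 encode the classical heavy chains that bind peptide. H2-K1 stood at 89.1, 79.98 and 50.2 FPKM in GRPR-AngII, at 80.5, 81.6 and 74.9 FPKM in CDH16KO-AngII and at 85.2, 74.5 and 86.8 FPKM in AngII. H2-D1 stood at 115, 104 and 73.4 FPKM in GRPR-AngII, at 108, 99.8 and 100.02 FPKM in CDH16KO-AngII and at 107, 93.9 and 106 FPKM in AngII. For both heavy chains GRPR-AngII library 1 was the highest and library 3 of the same group the lowest of the 9, with the other groups between them. The intervals of both were narrow: for CDH16KO-AngII against AngII, H2-D1 gave 0.04 on the log2 scale (95% interval −0.31 to 0.39, 0.81-fold to 1.31-fold), and H2-K1 had −0.02 (−0.41 to 0.37). Against AngII, GRPR-AngII gave −0.01 for H2-D1 (−0.36 to 0.34) and −0.11 for H2-K1 (−0.50 to 0.28). The ratio of H2-D1 to H2-K1, taken within a library from FPKM, was 1.29, 1.30 and 1.46 in GRPR-AngII, 1.34, 1.22 and 1.34 in CDH16KO-AngII and 1.26, 1.26 and 1.22 in AngII. In counts the ratio of H2-D1 to H2-K1 ran from 1.07 to 1.28 over the libraries. The ratio was looked at after the values were seen and has no test. The longest transcript of H2-D1 matches a transcript of H2-K1 at 88.4% identity over 70.3% of its length. Alignments that reached 95% identity as a whole covered 1.86% of it for H2-K1 and 13.3% for H2-Q7. Closer stretches inside longer alignments were not counted. How reads of these genes were split by the counting is uncertain.

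B2m encodes beta-2 microglobulin, the light chain of all class I molecules. It stood at 285, 290.2 and 204 FPKM in GRPR-AngII, at 329.9, 313 and 298 FPKM in CDH16KO-AngII and at 431, 229.9 and 285 FPKM in AngII. On this scale AngII library 1 was the highest and GRPR-AngII library 3 the lowest, and the AngII range enclosed all CDH16KO-AngII libraries. Each GRPR-AngII library lay below each CDH16KO-AngII library, and groups were separate in one direction or the other for 9.96% of all genes in that comparison. The log2 fold change there was −0.25 (SE 0.23, 95% interval −0.75 to 0.26, edgeR adjusted p = 0.98). It was −0.23 in GRPR-AngII against AngII (−0.73 to 0.28) and 0.02 in CDH16KO-AngII against AngII (−0.49 to 0.52). Without AngII library 1 the last of these was 0.35, and without AngII library 2 it was −0.17. Patl2 overlaps the whole span of B2m on the other strand, with 0 to 20 counts against 10466 to 25434 for B2m.

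Tap1 and Tap2 form the heterodimer that pumps peptides into the endoplasmic reticulum. Tap1 stood at 3.73, 2.32 and 2.0 FPKM in GRPR-AngII, at 1.99, 1.82 and 1.91 FPKM in CDH16KO-AngII and at 3.22, 1.68 and 2.45 FPKM in AngII. In CPM each GRPR-AngII library (24.9, 14.7 and 14.7) exceeded each CDH16KO-AngII library (13.2, 11.6 and 13.1), while AngII ran from 10.8 to 21.6 and overlapped both. Between GRPR-AngII and CDH16KO-AngII, 9.96% of all tested genes were separate in one direction or the other. Tap1 had the widest difference among the 9 tested genes, a log2 fold change of 0.52 in GRPR-AngII against CDH16KO-AngII (SE 0.27, 95% interval −0.08 to 1.12, edgeR adjusted p = 0.88). Without GRPR-AngII library 1 it was 0.22. For CDH16KO-AngII against AngII it was −0.33 (−0.93 to 0.27), and −0.04 to −0.54 when single libraries were left out. Tap2 stood at 7.81, 6.22 and 4.99 FPKM in GRPR-AngII, at 7.04, 5.81 and 6.30 FPKM in CDH16KO-AngII and at 6.06, 5.36 and 8.21 FPKM in AngII, and the groups overlapped. Its log2 fold changes were 0.03 for GRPR-AngII and 0.01 for CDH16KO-AngII, each against AngII, and 0.02 for GRPR-AngII against CDH16KO-AngII. The ratio of Tap1 to Tap2 from FPKM, again taken after the values were seen and without a test, was 0.478, 0.373 and 0.401 in GRPR-AngII, 0.283, 0.313 and 0.303 in CDH16KO-AngII and 0.531, 0.313 and 0.298 in AngII.

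Tapbp encodes tapasin, the bridge between transporter and heavy chain. It stood at 17.2, 15.6 and 13.6 FPKM in GRPR-AngII, at 17.5, 13.02 and 16.97 FPKM in CDH16KO-AngII and at 16.3, 14.2 and 18.4 FPKM in AngII. The groups coincided, and no comparison exceeded 0.01 in either direction on the log2 scale, with 95% intervals from −0.37 to 0.35. Zbtb22, on the same strand, covers 33.2% of the Tapbp span with 721 to 1095 counts per library, next to 2932 to 4072 for Tapbp, so reads there could be split either way.

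The immunoproteasome subunits were each highest in GRPR-AngII library 1, and their means were higher in GRPR-AngII than in the other groups, without a difference that passed the test. Psmb8 replaces Psmb5 in the immunoproteasome. It stood at 5.0, 4.17 and 2.73 FPKM in GRPR-AngII, at 3.91, 3.08 and 2.83 FPKM in CDH16KO-AngII and at 2.94, 2.62 and 4.07 FPKM in AngII. Its log2 fold change was 0.37 in GRPR-AngII against AngII (SE 0.23, 95% interval −0.13 to 0.87, edgeR adjusted p = 0.749), from overlapping groups. Psmb9, the counterpart of Psmb6, stood at 3.24, 2.43 and 1.78 FPKM in GRPR-AngII, at 1.54, 1.93 and 2.20 FPKM in CDH16KO-AngII and at 1.98, 1.90 and 2.27 FPKM in AngII. Its log2 fold change was 0.34 in GRPR-AngII against AngII (SE 0.22, −0.15 to 0.84, edgeR adjusted p = 0.757) and 0.42 against CDH16KO-AngII (SE 0.22, −0.08 to 0.91, edgeR adjusted p = 0.891).

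Psmb10, the counterpart of Psmb7, had the highest FPKM of the 3 subunits. It had 21.7, 16.4 and 16.0 CPM in GRPR-AngII, against 16.3, 13.3 and 15.5 CPM in CDH16KO-AngII and 13.3, 15.5 and 14.7 CPM in AngII. In CPM each GRPR-AngII library exceeded each AngII library, which held in one direction or the other for 14.0% of all tested genes. In FPKM the groups overlapped, with 10.4, 8.31 and 6.98 in GRPR-AngII, 7.93, 6.68 and 7.26 in CDH16KO-AngII and 6.35, 7.78 and 7.59 in AngII. Gm16156 covers the Psmb10 span on the other strand with 2 to 28 counts, next to 647 to 1080 for Psmb10. In GRPR-AngII against AngII the log2 fold change was 0.31 (SE 0.17, 95% interval −0.05 to 0.68, edgeR adjusted p = 0.736). Without GRPR-AngII library 1 the values for GRPR-AngII against AngII were 0.17 for Psmb8, 0.12 for Psmb9 and 0.16 for Psmb10. CDH16KO-AngII against AngII gave 0.07, −0.07 and 0.05 for the same genes. The comparisons of GRPR-AngII share their libraries with each other, and the AngII libraries serve in both comparisons with AngII.

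**Figure D3:**
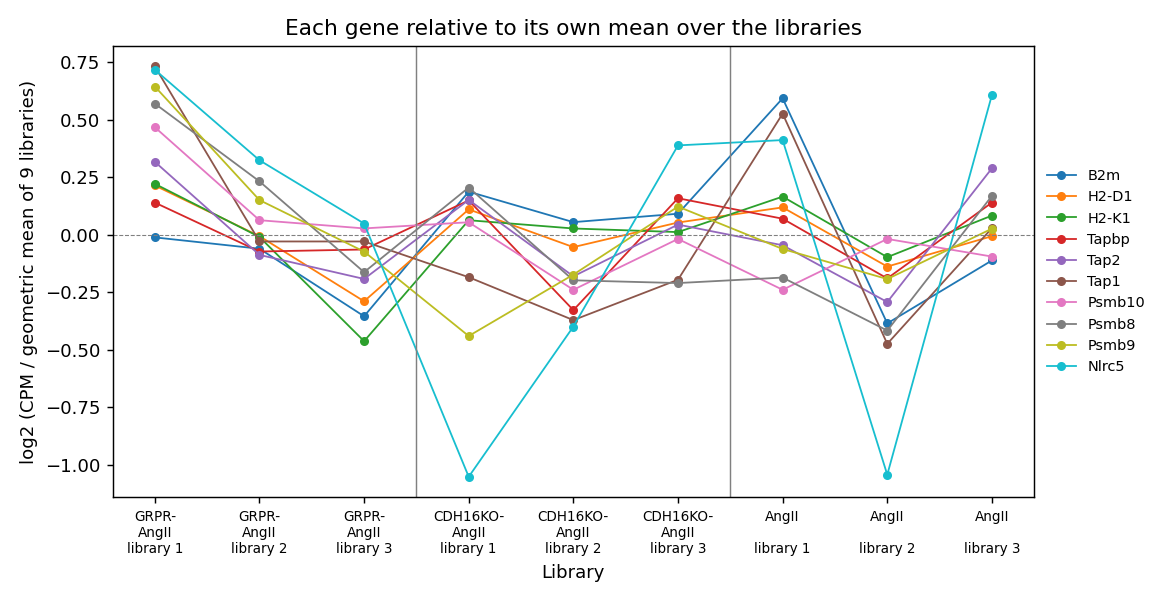
CPM of each gene relative to its geometric mean over the 9 libraries (log2), library by library; vertical lines divide the groups. Library 1 of GRPR-AngII is the highest for 8 of the 10 genes, while AngII library 2 is among the 3 lowest for 9 of the 10, and the groups are not separated.

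The constitutive subunits gave a second view of the proteasome, since each immunoproteasome subunit takes the place of one of them. Psmb8 amounted to 2.90%, 2.64% and 1.98% of the FPKM of Psmb5 in GRPR-AngII, to 5.51%, 1.84% and 2.51% in CDH16KO-AngII and to 2.72%, 1.51% and 2.52% in AngII. The high value of CDH16KO-AngII library 1 came with a Psmb5 level of 76.9 CPM, against 174 and 126 CPM in the other libraries of that group. Psmb9 averaged 3.99% ± 1.12 of Psmb6 in GRPR-AngII, 3.16% ± 0.472 in CDH16KO-AngII and 3.68% ± 0.752 in AngII (SD, n = 3 each). By FPKM, Psmb10 stood closer to its counterpart. It was at 38.7% ± 4.34 of Psmb7 in GRPR-AngII, 36.9% ± 12.2 in CDH16KO-AngII and 32.1% ± 6.47 in AngII (SD, n = 3 each). The size of that gap depends on the length scaling of FPKM. In counts, group means were 16.1% to 19.4% for Psmb10 over Psmb7. They were 8.49% to 12.4% for Psmb8 over Psmb5 and 6.21% to 7.83% for Psmb9 over Psmb6. The ranges of the ratios overlapped in all 9 comparisons of a ratio between groups, and exact two-sided permutation tests gave p = 0.3 to 0.9, where 0.1 is the smallest that 3 against 3 allows (0.9 for each after adjustment over the 9). Psmb5, Psmb6 and Psmb7 themselves were not called, and Psmb5 had a log2 fold change of 0.46 in GRPR-AngII against CDH16KO-AngII (SE 0.26, edgeR adjusted p = 0.911).

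**Figure D4:**
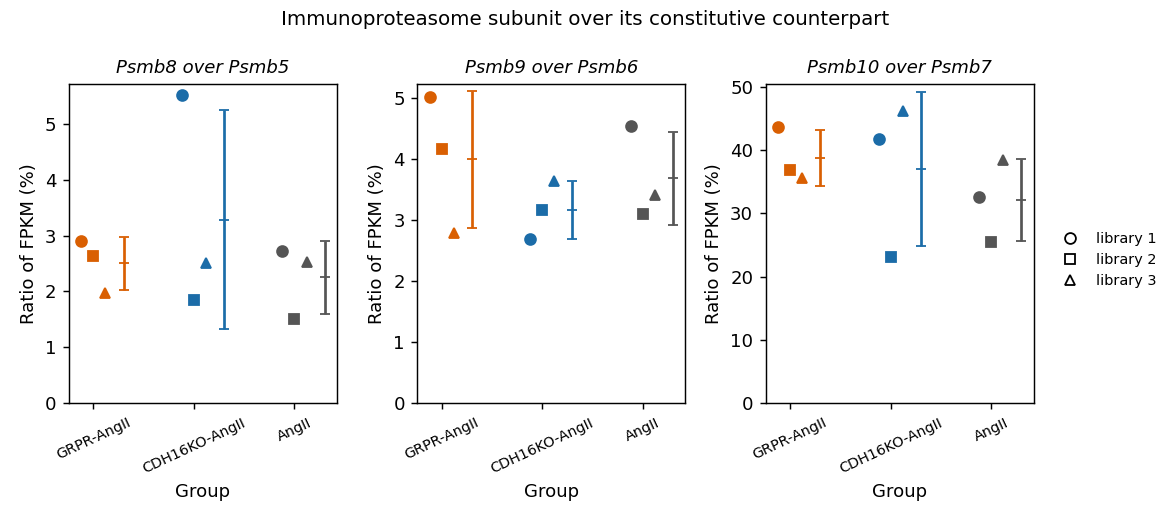
FPKM of each immunoproteasome subunit as a percentage of its constitutive counterpart, by group; symbols are libraries, and the bars beside them give the mean and SD (n = 3). The groups overlap in each panel, and Psmb10 over Psmb7 stands at 23.1% to 46.1% while the other ratios stay at or below 5.51%. In counts, not shown, Psmb8 over Psmb5 reached 20.8%, within the 11.5% to 23.1% of Psmb10 over Psmb7.

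Nlrc5, the transactivator of class I genes, was the lowest and the most variable of the set. It stood at 1.05, 0.84 and 0.60 FPKM in GRPR-AngII, at 0.31, 0.51 and 0.81 FPKM in CDH16KO-AngII and at 0.85, 0.32 and 1.04 FPKM in AngII, from 168 to 543 counts per library. GRPR-AngII library 1 was the highest and CDH16KO-AngII library 1 the lowest, AngII libraries lay near both ends, and no pair of groups was separated. Under a looser filter, an FPKM of 0.1, its log2 fold change was 0.65 in GRPR-AngII against CDH16KO-AngII (SE 0.42, 95% interval −0.29 to 1.58, edgeR adjusted p = 0.944), 0.25 in GRPR-AngII against AngII (−0.67 to 1.18) and −0.39 in CDH16KO-AngII against AngII (−1.32 to 0.54).

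Across the libraries the 10 genes moved in part together. GRPR-AngII library 1 held the highest CPM of 8 of the 10, the exceptions being B2m, highest in AngII library 1, and Tapbp, highest in CDH16KO-AngII library 3. AngII library 2 held the lowest CPM of 4 genes and was among the 3 lowest for 9, and CDH16KO-AngII library 2 was among the 3 lowest for 8. The mean z-score of the tested genes was 1.43, 0.03 and −0.83 in GRPR-AngII, 0.25, −0.67 and 0.10 in CDH16KO-AngII and 0.35, −0.93 and 0.26 in AngII. The highest and the second lowest library thus belonged to the same group. By Pearson correlation over the 9 libraries, the genes outside the lists whose level followed this profile most closely were Oas1g (r = 0.93, at 1.11 to 4.59 CPM), Rpl7-ps7 (0.88), Phf11b (0.87), Dnase2a (0.86) and Lfng (0.85). Those were the highest of all tested genes on no list, and the libraries share their depth and their preparation.

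Among the 25 other class I heavy chain and class I-like genes on the list, 22 were in the table and 10 were tested. edgeR called none in any comparison, and an unadjusted p under 0.05 was found for 1 in GRPR-AngII against AngII and for 2 in each of the other comparisons. Azgp1, a class I-like soluble glycoprotein that acts without beta-2 microglobulin, had 143, 55.1 and 132 CPM in GRPR-AngII, 29.9, 33.1 and 28 CPM in CDH16KO-AngII and 114, 111 and 69.9 CPM in AngII. Each CDH16KO-AngII library lay below every library of the other groups. Groups were separate in one direction or the other for 12.2% of all tested genes in CDH16KO-AngII against AngII. In GRPR-AngII against CDH16KO-AngII that share was 9.96%. Relative to AngII, the CDH16KO-AngII difference was −1.70 on the log2 scale (SE 0.32, edgeR adjusted p = 0.107), while GRPR-AngII against CDH16KO-AngII gave 1.86 (SE 0.32, edgeR adjusted p = 0.0711). Both differences missed the threshold in edgeR and passed it in DESeq2 (adjusted p = 1.83e-05 and 1.04e-06) and in edgeR without GRPR-AngII library 2 (adjusted p = 0.0195 and 0.025), while limma on FPKM did not call them. Each of the 2 differences was called under 3 of 20 alternatives. DESeq2 called 210 of the 12507 tested genes in CDH16KO-AngII against AngII and 175 in GRPR-AngII against CDH16KO-AngII, where edgeR called 21 and 18. Hfe, the class I-like partner of the transferrin receptor that binds beta-2 microglobulin, had 18.8, 19.0 and 17.5 CPM in GRPR-AngII, 12.5, 9.34 and 11.6 CPM in CDH16KO-AngII and 19.4, 18.0 and 16.3 CPM in AngII. Its CDH16KO-AngII libraries were likewise the lowest, with log2 fold changes of −0.69 against AngII (SE 0.15, edgeR adjusted p = 0.155, DESeq2 adjusted p = 0.00642) and of 0.73 in GRPR-AngII against CDH16KO-AngII (SE 0.15, edgeR adjusted p = 0.14, DESeq2 adjusted p = 0.00241). The summed proximal tubule markers, given above, reached lower values in CDH16KO-AngII too, and their part in these differences was not tested.

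**Figure D5:**
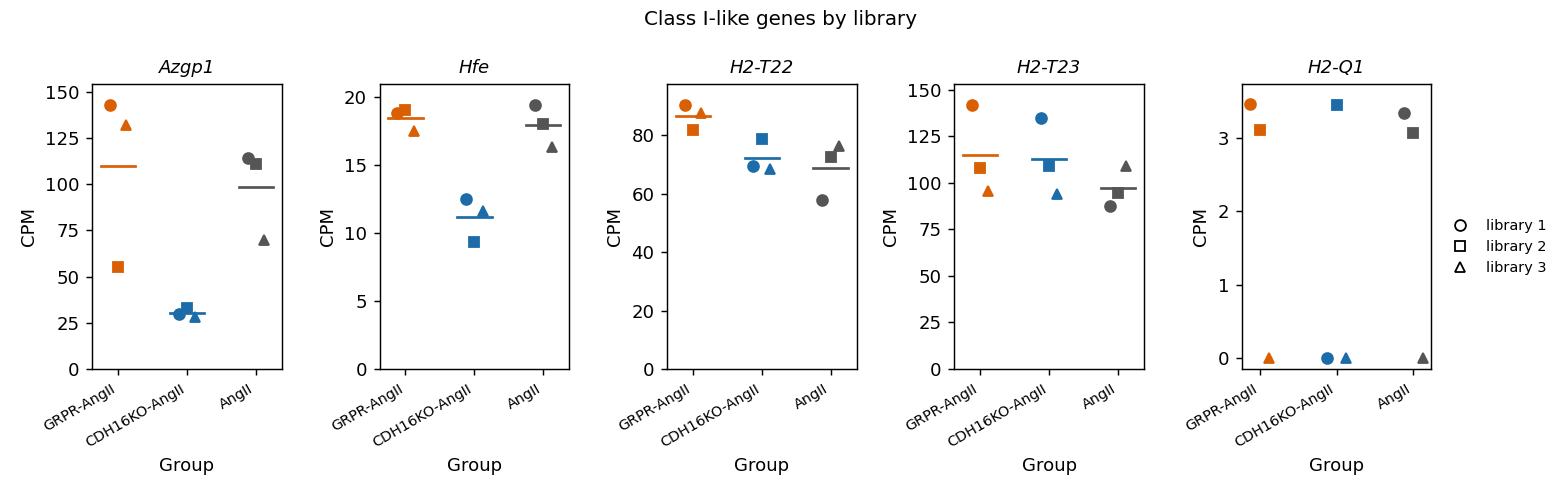
CPM of 5 class I-like genes by group; symbols are libraries and short lines are group means (n = 3), left out for H2-Q1. Azgp1 and Hfe are lowest in the CDH16KO-AngII libraries, H2-T22 is highest in GRPR-AngII, H2-T23 overlaps between groups, and H2-Q1 is at 0 in library 3 of each group and in CDH16KO-AngII library 1.

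H2-T22, a ligand of some gamma-delta T cells, had 90.4, 81.7 and 87.6 CPM in GRPR-AngII, 69.3, 78.7 and 68.4 CPM in CDH16KO-AngII and 57.8, 72.5 and 76.4 CPM in AngII, with a log2 fold change of 0.33 in GRPR-AngII against AngII (SE 0.14, edgeR adjusted p = 0.732). H2-T23, which encodes Qa-1, the presenter of leader peptides to NK cell receptors, had 142, 108 and 95.5 CPM in GRPR-AngII, 135, 109 and 94.0 CPM in CDH16KO-AngII and 87.8, 94.7 and 109 CPM in AngII. Fcgrt, the neonatal Fc receptor that needs beta-2 microglobulin, averaged 172 ± 9.82 CPM in GRPR-AngII, against 147 ± 4.98 CPM in AngII (SD, n = 3 each, log2 fold change 0.22, edgeR adjusted p = 0.783). CDH16KO-AngII had 126, 182 and 119 CPM of Fcgrt, on both sides of the AngII libraries. All 10 tested genes of this list had a positive log2 fold change in GRPR-AngII against AngII, with a median of 0.15 next to −0.01 over all genes, and none was called. That count depended on the scaling and on single libraries: 6 of the 10 were positive with limma on log2(FPKM + 1) (median 0.01, next to −0.06 over all genes), 6 without AngII library 2, 7 without GRPR-AngII library 1, and 8 without AngII library 3 or without GRPR-AngII library 2. H2-T10 had 5.64, 2.72 and 5.11 CPM in CDH16KO-AngII, against 2.83, 2.65 and 4.10 CPM in AngII, from overlapping groups.

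No partner gene of the pathway was called. Of 13 partner genes of folding, loading and trimming, all tested, edgeR, DESeq2 and limma called none. Their medians were 0.03 for GRPR-AngII against AngII, 0.02 for CDH16KO-AngII against AngII and −0.01 for GRPR-AngII against CDH16KO-AngII. Uggt1, the folding sensor that returns peptide-poor class I molecules for loading, had 55.8, 50.1 and 54.6 CPM in CDH16KO-AngII, against 43.2, 40.5 and 44.3 CPM in AngII (log2 fold change 0.33, SE 0.11, edgeR adjusted p = 0.427). Calr, the chaperone of the loading complex, had 682, 816 and 672 CPM in CDH16KO-AngII, against 602, 641 and 495 CPM in AngII (0.32, SE 0.16, edgeR adjusted p = 0.619). Lnpep, a trimming peptidase, had 27.6, 33.3 and 20.8 CPM in GRPR-AngII, against 38.8, 41.4 and 32.3 CPM in AngII (−0.46, SE 0.19, edgeR adjusted p = 0.732). An unadjusted p under 0.05 was found for 2 of the 13 in GRPR-AngII against AngII, 1 in CDH16KO-AngII against AngII and 0 in GRPR-AngII against CDH16KO-AngII. Of 18 proteasome activator, assembly and core genes none was called by any of the 3 tools or had an unadjusted p under 0.05. In GRPR-AngII against AngII 8 of the 18 were positive (median −0.01, next to −0.01 over all genes), and in CDH16KO-AngII against AngII 5 of the 18 (median −0.05, next to 0.01). In GRPR-AngII against CDH16KO-AngII 17 of the 18 were positive, or 14 with limma on log2(FPKM + 1). The median there was 0.11 next to −0.01 over all genes, with values from −0.18 to 0.30. Psmg1, Pomp and Psmb4 had the smallest p of the list in that comparison. Their levels in CDH16KO-AngII library 2 (25.1, 84.1 and 163 CPM) lay within the GRPR-AngII range or above it. The genes share the same libraries, so their signs are not independent.

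Regulators and interferon genes gave larger single values and no calls by edgeR, DESeq2 or limma. Of 26 regulators of class I genes and interferon-gamma signalling, 24 were tested, and an unadjusted p under 0.05 was found for 1 in GRPR-AngII against AngII, 3 in CDH16KO-AngII against AngII and 4 in GRPR-AngII against CDH16KO-AngII. Ifngr2, a chain of the interferon-gamma receptor, had 9.78, 10.2 and 9.69 CPM in GRPR-AngII and 9.18, 9.71 and 10.4 CPM in CDH16KO-AngII, against 15.9, 11.5 and 15.9 CPM in AngII. Its log2 fold change was −0.55 (edgeR adjusted p = 0.685) in GRPR-AngII and −0.56 (edgeR adjusted p = 0.331) in CDH16KO-AngII, both against the same AngII libraries. Irf8, an interferon-responsive factor of myeloid cells, had 24.6, 16.8 and 17.6 CPM in GRPR-AngII, against 12.7, 11.1 and 12 CPM in CDH16KO-AngII (log2 fold change 0.72, SE 0.22, edgeR adjusted p = 0.417). AngII had 17.1, 11.3 and 19.3 CPM of Irf8 and overlapped both groups. Nfya, a subunit of the NF-Y factor that binds CCAAT, had 22.7, 20.3 and 24.2 CPM in GRPR-AngII, against 28.6, 30 and 35.1 CPM in CDH16KO-AngII (−0.48, SE 0.16, edgeR adjusted p = 0.487).

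Of 32 interferon-stimulated genes 28 were tested and none was called by edgeR, with an unadjusted p under 0.05 for 1 in GRPR-AngII against AngII, 2 in CDH16KO-AngII against AngII and 4 in GRPR-AngII against CDH16KO-AngII. In CDH16KO-AngII against AngII 20 of the 28 were negative with a median of −0.29, and in GRPR-AngII against CDH16KO-AngII 20 were positive with a median of 0.24, next to 0.01 and −0.01 over all genes. These comparisons share the CDH16KO-AngII libraries, so the values are not independent of each other. In GRPR-AngII against AngII 12 were positive and 16 negative, with a median of −0.04. Trim30a had 6.90, 6.92 and 6.48 CPM in GRPR-AngII, 4.31, 3.20 and 4.32 CPM in CDH16KO-AngII and 7.72, 4.61 and 7.24 CPM in AngII. Rsad2, which encodes the antiviral enzyme viperin, had 23, 26.4 and 24.1 CPM in GRPR-AngII, 16.8, 13.5 and 19.9 CPM in CDH16KO-AngII and 18.5, 15.2 and 14.4 CPM in AngII (log2 fold change of GRPR-AngII against AngII 0.61, SE 0.17, edgeR adjusted p = 0.647). Ifi27 ran the other way, with 46.3, 40.5 and 29.5 CPM in GRPR-AngII, against 102, 51.4 and 51.3 CPM in CDH16KO-AngII (−0.82, SE 0.27, edgeR adjusted p = 0.489).

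Class II genes, which present peptides taken up from outside and mark antigen-presenting leukocytes, were tested for 8 of 10 members. None was called by any of the 3 tools, 1 had an unadjusted p under 0.05 in each comparison with AngII and 0 in the remaining one, and the medians were −0.09 for GRPR-AngII against AngII, −0.29 for CDH16KO-AngII against AngII and 0.24 for GRPR-AngII against CDH16KO-AngII. H2-Ab1 had 133, 105 and 86.0 CPM in GRPR-AngII and 68.5, 94.2 and 117 CPM in CDH16KO-AngII, against 142, 83.9 and 148 CPM in AngII. Ctss, the protease that clears the class II invariant chain, had 6.75, 10.5 and 10.4 CPM in CDH16KO-AngII, against 20.9, 8.97 and 23.6 CPM in AngII (log2 fold change −0.95, SE 0.37, edgeR adjusted p = 0.533). AngII library 2 was the lowest of its group for both genes, and it also held the lowest Nlrc5, Tap1 and B2m values of that group. Of 18 receptors for class I molecules and cytotoxic cell genes 4 passed the filter, none was called by edgeR, DESeq2 or limma, and 0 had an unadjusted p under 0.05. All 4 (Ccl5, Nkg7, Lilrb4a and Trac) were negative in CDH16KO-AngII against AngII, with a median of −0.56 next to 0.01 over all genes. The medians were −0.31 in GRPR-AngII against AngII (3 of 4 negative) and 0.37 in GRPR-AngII against CDH16KO-AngII (3 of 4 positive), each next to −0.01 over all genes. Nkg7, a granule protein of cytotoxic cells, had 0.591, 0.583 and 0.979 CPM in CDH16KO-AngII, against 1.35, 0.865 and 2.35 CPM in AngII, and the groups overlapped (log2 fold change −1.08, SE 0.59, edgeR adjusted p = 0.632).

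The stretch of chromosome 17 between the 2 heavy chain genes held 103 other genes of the table, of which 57 were tested. edgeR called none of them in any comparison, and an unadjusted p under 0.05 was found for 1 in GRPR-AngII against AngII, 4 in CDH16KO-AngII against AngII and 5 in GRPR-AngII against CDH16KO-AngII. Their medians were 0.05, 0.04 and −0.05 in that order of comparisons. Egfl8 had 4.20, 3.41 and 5.51 CPM in GRPR-AngII, 8.06, 8.79 and 13.6 CPM in CDH16KO-AngII and 5.26, 4.63 and 6.26 CPM in AngII. Slc39a7, a zinc transporter of the endoplasmic reticulum and Golgi, had 31.5, 45 and 40.8 CPM in GRPR-AngII, against 25.3, 24.3 and 22.7 CPM in CDH16KO-AngII. In GRPR-AngII against CDH16KO-AngII DESeq2 called Egfl8 and Slc39a7, for which edgeR gave log2 fold changes of −1.21 (adjusted p = 0.17) and 0.70 (adjusted p = 0.19). DESeq2 called 175 of the 12507 tested genes in that comparison. Brd2, a bromodomain protein, had 109, 112 and 111 CPM in GRPR-AngII, against 140, 142 and 136 CPM in AngII (−0.33, SE 0.13, edgeR adjusted p = 0.732).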

How the data were processed

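For each gene and library the deposited table holds FPKM and a count, per the file headers. The authors' FPKM values are scaled to a length per gene, which was not checked here, and to the library. The deposited counts were whole numbers and were treated as estimated counts, already rounded, since the value 4 was more frequent than 3 or 5. The submitters' processing notes name GRCm38 and mm10; aligner, counter and strand use: not given in the sources used here. Libraries were made from kidney RNA with a SMARTER mRNA-Seq kit, per the labels' protocols.

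The 12507 genes that reached 1 FPKM in 3 or more libraries were tested with edgeR 4.0.16 in R 4.3.3: quasi-likelihood test, TMM scaling, all 9 libraries in 1 fit without a block, and a Benjamini-Hochberg adjusted p under 0.05 as the call. CPM is the count per 1e+06 of the TMM-scaled library size. Immunoproteasome ratios used exact permutation tests in Python 3.11.15. Alternatives were DESeq2 1.42.0, limma 3.58.1 on log2(FPKM + 1) and log2(FPKM + 0.1), other filters and scalings, a replicate block, 2 groups only, each library left out, and, added after seeing the data, counts divided by 4. The script was tested on simulated data. Shared sequence was searched with BLAST+ 2.17.0. Within each group no library was a copy of another, and pairs of libraries from different groups were not checked.

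The members and lists were chosen with earlier results of these data known. From each list, the 3 tested genes of smallest p per comparison were eligible to be named, together with Psmb5, Psmb6 and Psmb7, and the 5 unlisted genes most like the members' profile. H2-K2, H2-Q1 and the within-library ratios of H2-D1 to H2-K1 and of Tap1 to Tap2, were looked at after their values were seen.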

Additional observations from a re-analysis of the deposited data

How the results depend on the processing

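None of the 9 tested class I genes was called under any of the 20 alternatives in any comparison, and the smallest adjusted p was 0.475 (Psmb8 in GRPR-AngII against AngII without AngII library 3). The median log2 fold change of the tested members stayed between −0.11 and 0.16 when each library was left out in turn. Of 546 member values under alternatives, 60 had another sign than the reported one, none of them called. The number of genes called over the whole table moved far more. DESeq2 called 54 for GRPR-AngII against AngII, 210 for CDH16KO-AngII against AngII and 175 for GRPR-AngII against CDH16KO-AngII. Without a filter the last count was 41 and with 2 groups only 9. Leaving out single libraries gave 0 to 2, 0 to 42 and 0 to 50 calls. For CDH16KO-AngII against AngII the counts were 0, 3, 3 and 12 without AngII 1, AngII 2, CDH16KO-AngII 3 and GRPR-AngII 1, and 42 and 35 without CDH16KO-AngII 1 and 2. Against AngII, GRPR-AngII gave 2 without AngII 3 and 1 without GRPR-AngII 1. For GRPR-AngII against CDH16KO-AngII they were 0, 6, 5 and 2 without GRPR-AngII 1, 2 and 3 and CDH16KO-AngII 3, and 50 without CDH16KO-AngII 1. The cause was not tested.

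Replicate numbers are shared between the groups, and same-numbered libraries did not deviate together in each pair (r = −0.122 to 0.298). Deviations from a mean of 3 libraries depend on each other, so this check cannot decide whether the numbers pair the libraries. The labels do not say. Between GRPR-AngII and CDH16KO-AngII each library correlated best with the one of its own number (r = 0.091, 0.19 and 0.237), a hint from the data and not from the design. CDH16KO-AngII libraries 2 and 3 and GRPR-AngII library 3 also correlated best with the AngII library of their own number (r = 0.298, 0.283 and 0.265). CDH16KO-AngII library 1 and GRPR-AngII libraries 1 and 2 did not. With the replicate block, 0 members were called and their medians were 0.03 for GRPR-AngII and 0.01 for CDH16KO-AngII against AngII, and 0.02 for GRPR-AngII against CDH16KO-AngII, with 0, 26 and 13 genes called over the table. With 3 libraries a group, the 95% intervals of the 9 tested members leave changes of up to 2.17-fold (Tap1) possible.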

Other observations

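H2-Q1, a class I gene at chr17:35320405-35325099 on GRCm38, had counts in some libraries of each group and none in the others. It had 172, 193 and 0 counts in GRPR-AngII, 0, 195 and 0 counts in CDH16KO-AngII and 187, 163 and 0 counts in AngII. It was the only gene of the table with 3 or fewer counts in those 4 libraries and at least 20 in each of the other 5. The zero libraries were library 3 of each of the 3 groups and CDH16KO-AngII library 1, so each group held at least 1 of them and each library numbered 3 was at 0.

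H2-K2, whose sequence matches H2-K1 at 88.6% identity over 53.9% of the H2-K1 transcript, had 14.0, 9.33 and 12.1 CPM in GRPR-AngII and 16.3, 9.38 and 18.4 CPM in CDH16KO-AngII, against 5.77, 6.73 and 9.63 CPM in AngII. Library 2 of GRPR-AngII and of CDH16KO-AngII lay within the AngII range. H2-K2 was looked at after its values were seen, and no test of it is given here.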
